A study of Mus musculus with 15 samples.

Results

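Hox genes encode homeodomain transcription factors, and the 39 genes of the 4 mouse Hox clusters were followed here through the embryonic lung. They were taken as every gene of the count tables whose symbol is Hox, a cluster letter from a to d and a number, which gave 11 HoxA, 10 HoxB, 9 HoxC and 9 HoxD genes out of 23420 genes. The libraries came from whole lungs of wildtype CD1 mice, an outbred stock, in 5 groups of 3 replicates. Lungs taken at E12.5 were held in culture for 48 h at high or at low transmural pressure, that is the difference in pressure between the inside and the outside of the airways, and fresh lungs were processed directly after isolation at E12.5, E13.5 or E14.5 (E, embryonic day). Each RNA sample pooled 3 lungs in the high pressure, E13.5 and E14.5 groups and 6 lungs in the low pressure and E12.5 groups, so the number of lungs in a pool differed between pressures and between stages. The series asks how pressure bears on branching of the airways, and the fresh lungs give the course of normal development beside it.

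Hox genes lie in tight clusters in which the order along the chromosome mirrors the order of expression along the body axis. Genes with low paralog numbers are used towards the head and genes with high numbers towards the tail, and genes with the same number in different clusters (paralogs) descend from one ancestor. HOX proteins bind DNA together with cofactors of the TALE family, the PBX, MEIS and PKNOX proteins. In the mouse lung the group 5 genes Hoxa5, Hoxb5 and Hoxc5 are expressed in the mesenchyme, where they act on branching and on the growth of the airways, and loss of Hoxa5 causes tracheal and lung defects.

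The results below turn mostly on Hoxa5, the Hox gene with the highest level, on Hoxa2, Hoxa3, Hoxa4 and Hoxd3, which fell at high pressure, and on Hoxb8, which rose. Promoters of 4 of these 6 genes are shown so that their start regions can be compared. Each is the 250 bases before the annotated start, 5′ to 3′ on the gene's strand, from RefSeq on GRCm38.p6, with every CCAAT box match on either strand in capitals. The Hoxa2 stretch is chr6:52164832-52165081 on the minus strand, that of Hoxd3 chr2:74711743-74711992 on the plus strand, that of Hoxb8 chr11:96281655-96281904 on the plus strand and that of Hoxa5 chr6:52204588-52204837 on the minus strand.
Hoxa2: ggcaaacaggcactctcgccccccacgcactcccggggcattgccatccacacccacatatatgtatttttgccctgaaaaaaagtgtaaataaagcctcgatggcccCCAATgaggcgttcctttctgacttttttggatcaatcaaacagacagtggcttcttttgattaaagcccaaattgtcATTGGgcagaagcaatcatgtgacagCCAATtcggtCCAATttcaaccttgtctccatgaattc
Hoxd3: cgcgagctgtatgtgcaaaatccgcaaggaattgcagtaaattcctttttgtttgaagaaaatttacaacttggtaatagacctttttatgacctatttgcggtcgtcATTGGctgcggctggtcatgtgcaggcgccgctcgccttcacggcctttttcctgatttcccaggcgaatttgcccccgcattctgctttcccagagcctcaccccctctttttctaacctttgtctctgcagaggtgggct
Hoxb8: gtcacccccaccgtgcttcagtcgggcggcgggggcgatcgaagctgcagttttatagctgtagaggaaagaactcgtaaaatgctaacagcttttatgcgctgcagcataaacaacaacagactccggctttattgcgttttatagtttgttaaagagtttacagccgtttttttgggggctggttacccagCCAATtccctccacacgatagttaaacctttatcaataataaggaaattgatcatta
Hoxa5: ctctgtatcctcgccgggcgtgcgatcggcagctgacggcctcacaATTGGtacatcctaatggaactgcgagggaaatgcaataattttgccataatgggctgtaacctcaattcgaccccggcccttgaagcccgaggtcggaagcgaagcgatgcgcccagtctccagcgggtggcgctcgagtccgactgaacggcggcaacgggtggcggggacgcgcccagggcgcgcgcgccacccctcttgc
CCAAT was found in all 4 of these stretches, and 4 times in that of Hoxa2. The promoter listed for Hoxa3, not shown here, held no CCAAT, and no promoter was listed for Hoxa4. Over all promoters of this length, 33.8% of 32851 held a CCAAT on either strand, and 14 of the 24 promoters listed for 22 Hox genes did. TATAAA was in 12.4% of all promoters and in 4 of the Hox promoters, among them that of Hoxb8 but not those of Hoxa2, Hoxd3 or Hoxa5. The Pbx-Hox type motif TGATTNAT was in 2.82% of all promoters and in those of Hoxa2 and Hoxd11. No Hox promoter held an exact retinoic acid response element of the direct repeat 5 type, which was in 0.00913% of all promoters. The Hox promoters had a median GC content of 58.6%, against 52.4% over all promoters. These matches describe letters in the window and say nothing about binding.

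The 9 fresh libraries held 18837343 to 21955244 counts, and the cultured ones 40167255 to 44341263 at high and 31843739 to 38288861 at low pressure. Low pressure replicate 3 stood apart, with counts for 14637 genes against 16509 to 16726 in the other 5 cultured libraries. Replicate 1 of each fresh stage also stood apart: the 85 ribosomal protein genes took 3.53% to 4.3% of its counts, against 1.75% to 2.21% in replicates 2 and 3. In the cultured lungs the same share was 3.02% to 3.31% at high and 1.91% to 2.17% at low pressure. The labels do not say whether replicates came from separate litters or cultures, so p-values measure the spread between these pools, which may be technical. Levels are CPM, counts divided by library size with scaling factors set jointly over the 15 libraries, and genes are compared with each other only as CPM per kilobase of exon.

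The lung carried a Hox profile of the anterior and middle groups. Of the 23 genes with paralog numbers 1 to 8, 17 reached a mean of 1 CPM in at least 1 group, and of the 16 genes numbered 9 to 13 only Hoxd13 did. Of all 39 genes, 18 reached that level, 17 had counts but stayed under it in every group, and 4 (Hoxa11, Hoxb13, Hoxc11 and Hoxc12) had no count in any library. A count of 0 over a group allows up to 0.0237 CPM at high pressure, 0.0294 CPM at low pressure and 0.048 to 0.052 CPM in the fresh groups, counting error only. The genes above 10 CPM in all 5 groups were Hoxa3, Hoxa4 and Hoxa5 in HoxA and Hoxb2 to Hoxb6 in HoxB, 8 genes in all.

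**Figure D1:**
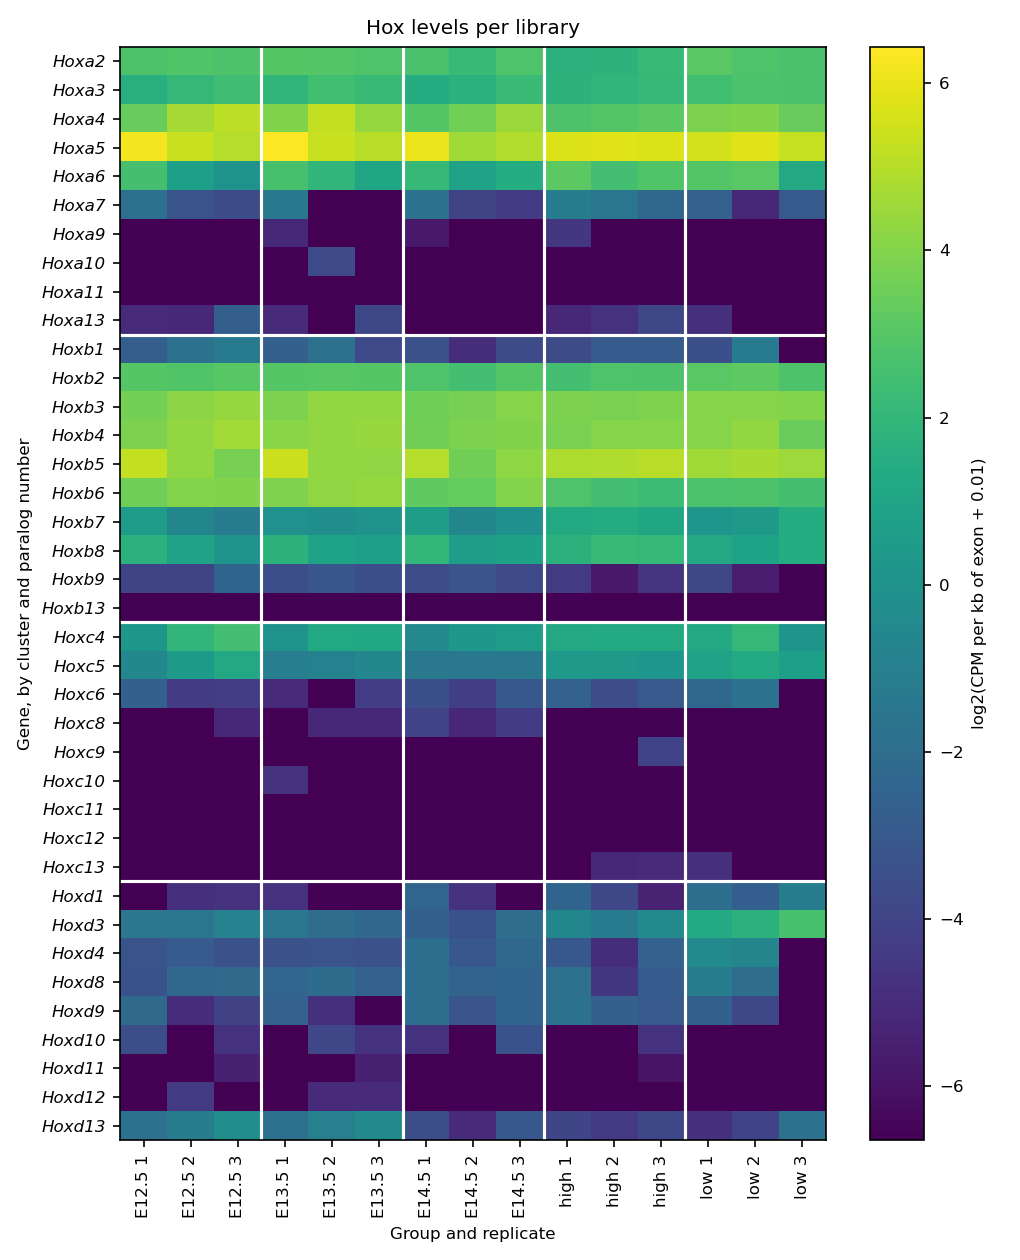
Level of Hox genes (rows, by cluster and paralog number) in each of the 15 libraries (columns), as log2 of CPM per kilobase of exon plus 0.01. The bright rows are Hoxa4, Hoxa5 and Hoxb3 to Hoxb6, and the dark rows are most HoxC and HoxD genes and nearly all genes numbered 9 and above.

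Averaged over all 15 libraries Hoxa5 was the highest Hox gene per length, at 48.6 ± 17.3 CPM per kilobase (SD, n = 15 libraries), and Hoxb5 had 25.2 ± 8.53. Hoxb4, Hoxa4 and Hoxb3 followed at 16.9 ± 3.69, 16.7 ± 9.65 and 16.0 ± 2.6 CPM per kilobase, and these 3 do not differ from each other beyond their spread. The order was not the same in every library: Hoxa4 was above Hoxb5 in all 6 fresh libraries of replicates 2 and 3, and in E12.5 replicate 3 Hoxa4, at 34.95 CPM per kilobase, was also above Hoxa5, at 31.7. Hoxb6 had 11.4 ± 5.22 and Hoxb2 7.5 ± 0.988 CPM per kilobase, and Hoxc5, the third group 5 gene, had 1.14 ± 0.726. HoxA and HoxB together held nearly all of the Hox signal: HoxB took 57.1% ± 0.681 of the summed Hox CPM at high pressure and 51.2% ± 1.0 at low pressure, and HoxA took 39.4% ± 0.451 and 41.5% ± 1.07 (SD, n = 3 each). These shares are not scaled by gene length, and per kilobase the means of the 2 clusters were in reverse order at both pressures. As CPM per kilobase HoxB took 47.8% ± 0.924 at high and 43.4% ± 1.45 at low pressure. HoxA took 49.2% ± 0.7 and 50.9% ± 1.86 on that scale (SD, n = 3 each). At high pressure the gap was small, with 48.9% for HoxA and 48.3% for HoxB in replicate 2. At E14.5 the order was not reversed, with 50.2% ± 3.9 for HoxB and 48.0% ± 4.22 for HoxA per kilobase (SD, n = 3 each). The HoxC genes took 1.28% to 3.08% of the summed Hox CPM in the 5 groups on average, and the HoxD genes 0.698% to 4.48%. The highest of these means, 4.48% for HoxD, was in the low pressure lungs.

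At high pressure the anterior HoxA genes Hoxa2, Hoxa3 and Hoxa4 and the HoxD gene Hoxd3 were lower than at low pressure, and Hoxb8 was higher. Of 23 Hox genes that passed the filter on low counts, 6 passed an adjusted p of 0.05 (edgeR's quasi-likelihood test, Benjamini-Hochberg over all 14937 genes tested). An unadjusted p under 0.05 was found for 8 of the 23, beside 5913 of the 14937 genes. Among all genes 26.1% were called, 14% higher and 12.2% lower at high pressure, so the number of Hox genes called was at the background share. 5 of the 6 were lower. The median log2 fold change of the 23 Hox genes was -0.33, beside 0.01 over all genes tested. In RNA of whole lungs, fewer cells of a type and less RNA per cell cannot be told apart.

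Hoxa2, which gives the second pharyngeal arch its identity, had 6.02, 6.28 and 7.996 CPM at high and 14.8, 12.6 and 11.2 CPM at low pressure. Every high pressure library was below every low pressure one, and the log2 fold change, -0.92, had an SE of 0.19 (adjusted p = 0.0090, edgeR). Hoxa3, required for thymus and parathyroid glands, had 21.3, 23.7 and 25.9 CPM at high and 33.6, 39.3 and 39.1 CPM at low pressure, with no overlap (log2 fold change -0.66, SE 0.12, adjusted p = 0.0067, edgeR). Hoxa4 had 10.9, 12.3 and 13.8 CPM at high and 23.4, 24.4 and 16.5 CPM at low pressure. Its lowest low pressure library, replicate 3, was still above all 3 high pressure libraries, and the log2 fold change was -0.80 (SE 0.18, adjusted p = 0.0142, edgeR).

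These 3 genes are neighbours in HoxA, on the minus strand of chromosome 6 (GRCm38), with Hoxa2 running from 52162417 to 52164831 and Hoxa4 from 52189671 to 52191753. The longest annotated Hoxa3 transcripts reach 52213336 and so span Hoxa4, Hoxa5 and Hoxa6. Antisense genes in the annotation overlap 25.4% of the exon length of Hoxa3 and 16.0% of that of Hoxa4. The sources used here do not give the strand setting of the counting, and reads of these partners cannot be told apart from those of the Hox genes. Leaving out 1 library ended the call of Hoxa4 in 3 of 6 cases, those without high replicate 1, high replicate 2 or low replicate 2, and the call of Hoxa2 without high replicate 2.

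Hoxd3, which patterns the neck vertebrae, showed the largest fold difference of the called Hox genes. It had 2.65, 1.77 and 3.07 CPM at high pressure, against 10.5, 14.1 and 25.4 CPM at low pressure. The groups were far apart (log2 fold change -2.74, SE 0.36, adjusted p = 0.0018, edgeR), and low replicate 3 was the highest library. Without that library the log2 fold change was -2.30 (adjusted p = 8.0e-05, edgeR). Hoxd3 kept its call under each of 12 alternative settings. In the fresh lungs Hoxd3 ranged from 0.364 to 2.29 CPM, so the low pressure libraries stood above all 12 others.

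The rest of HoxD stayed low and Hoxd3 carried its sum, which was 3.88 ± 1.26 CPM at high and 19.6 ± 6.44 CPM at low pressure (SD, n = 3 each). Hoxd4, the next gene of the cluster, had 0.323, 0.068 and 0.478 CPM at high pressure, against 2.17, 1.82 and 0 CPM at low pressure. Low replicate 3, the highest library for Hoxd3, thus had no Hoxd4 count, and Hoxd4 did not pass with all 6 libraries (log2 fold change -2.19, SE 1.29, adjusted p = 0.242, edgeR). Without low replicate 3 it was called (log2 fold change -2.78, adjusted p = 0.0053, edgeR). Annotated exons of Gm28230 and Hoxd4 on the same strand cover 62.3% of the exon length of Hoxd3, and those of Gm28230 and Hoxd3 cover 52.3% of that of Hoxd4, of which the overlap of Hoxd3 and Hoxd4 with each other is 9.3% of the Hoxd3 and 13.2% of the Hoxd4 length. The sources used here do not say how reads in shared exons were assigned, so the values of both genes are uncertain. Hoxb1, Hoxb9, Hoxc6, Hoxd8 and Hoxd9 also had no count in low replicate 3 while both other low pressure libraries had some.

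**Figure D2:**
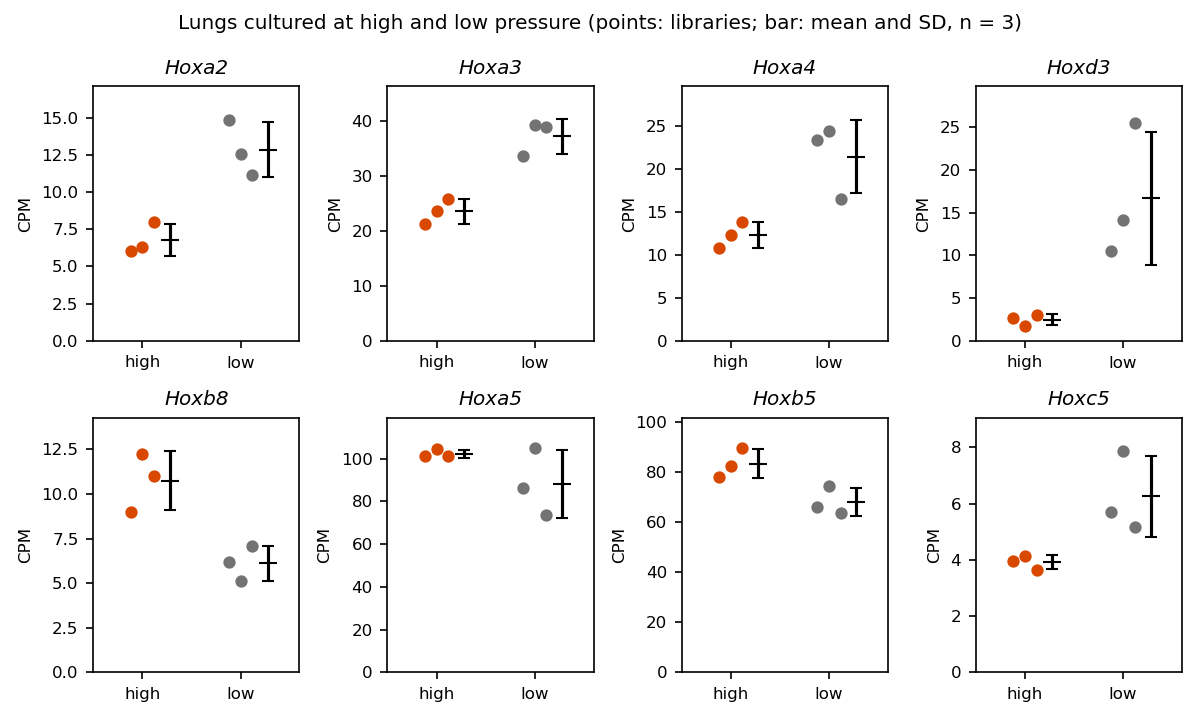
CPM of 8 Hox genes in the lungs cultured at high and low pressure, with 1 point per library and the mean and SD beside it (n = 3). The points of Hoxa2 to Hoxa4, Hoxc5 and Hoxd3 lie lower at high pressure with no overlap, those of Hoxb8 and Hoxb5 lie higher, and those of Hoxa5 overlap.

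Hoxb8, a gene of the middle HoxB cluster used in spinal cord and blood cell precursors, was higher at high pressure. It had 8.97, 12.2 and 11.01 CPM there, against 6.17, 5.12 and 7.09 CPM at low pressure, with no overlap (log2 fold change 0.81, SE 0.20, adjusted p = 0.0194, edgeR). The call did not hold without high replicate 2, high replicate 3, low replicate 1 or low replicate 2, nor with offsets for GC content and gene length, where the log2 fold change was 0.56. Hoxb7 beside it had 3.83, 4.12 and 3.19 CPM at high and 1.80, 2.001 and 4.25 CPM at low pressure. It did not pass with all libraries (log2 fold change 0.48, adjusted p = 0.374, edgeR), low replicate 3 being the highest library, and was called without that library (0.97, adjusted p = 0.0156, edgeR).

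The group 5 genes, the Hox genes best known in lung, did not pass the test. Hoxb5 had 78.1, 82.7 and 89.6 CPM at high pressure, against 66.0, 74.4 and 63.8 CPM at low pressure. Its groups did not overlap, yet the log2 fold change of 0.30 (SE 0.10) had an adjusted p of 0.0572 (edgeR), and 0.0412 without low replicate 3. Hoxa5 had 101, 105 and 101 CPM at high and 86.2, 105 and 73.6 CPM at low pressure, with overlapping groups (log2 fold change 0.22, SE 0.13, adjusted p = 0.24, edgeR). Hoxc5 had 3.94, 4.15 and 3.65 CPM at high and 5.71, 7.87 and 5.17 CPM at low pressure, which ran the other way (log2 fold change -0.67, SE 0.24, adjusted p = 0.0662, edgeR, and 0.0141 without low replicate 3). As a share of all Hox CPM, Hoxa5 and Hoxb5 together took 45.4% ± 0.306 at high and 34.8% ± 1.07 at low pressure (SD, n = 3 each), with ranges of 45.1% to 45.7% and 33.9% to 36.0%. In level the pair had 186 ± 6.11 CPM at high and 156 ± 21.3 CPM at low pressure. The sum of all Hox genes was 410 ± 15.7 CPM at high and 448 ± 46.5 CPM at low pressure (SD, n = 3 each). The share thus also moves with the other Hox genes.

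The fitted fold changes of HoxA ran from negative at low to positive at higher paralog numbers. Hoxa2 to Hoxa4 had log2 fold changes of -0.92 to -0.66, Hoxa5 and Hoxa6 0.22 and 0.24, and Hoxa7 1.72, the last from 122 counts over the high and 28 over the low pressure libraries (SE 0.83, adjusted p = 0.158, edgeR). In HoxB the values were -0.33 for Hoxb2, -0.19 for Hoxb3, 0.00 for Hoxb4, 0.30 for Hoxb5, -0.13 for Hoxb6, 0.48 for Hoxb7 and 0.81 for Hoxb8, of which Hoxb8 alone passed. In HoxA, Hoxa5, Hoxa6 and Hoxa7 did not pass. Hoxa6 had 7.56, 5.03 and 6.34 CPM at high and 6.67, 7.33 and 2.075 CPM at low pressure. Only low replicate 3 lay below its high pressure range, so its positive value leaned on that library. The order by paralog number is a description of fitted values and was not tested.

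**Figure D3:**
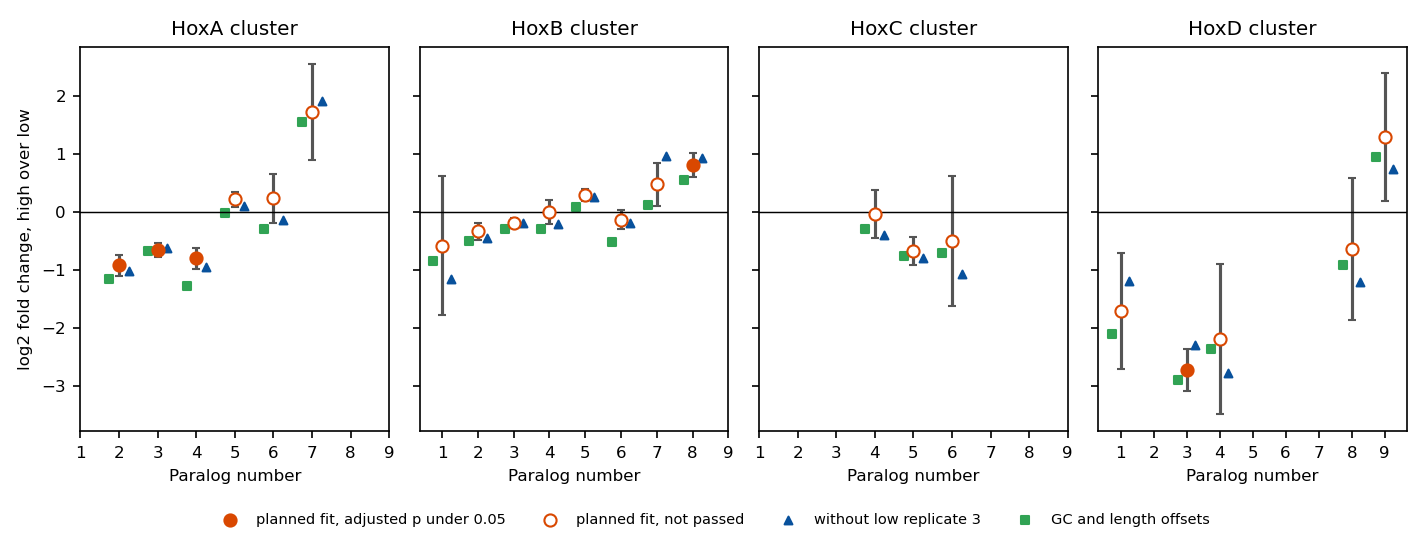
log2 fold change of high over low pressure for Hox genes tested, by paralog number in each cluster, with bars of 1 SE on the planned fit and the values without low replicate 3 and with GC and length offsets beside it. In HoxA the values of Hoxa2 to Hoxa4 lie below 0 and those from Hoxa5 on above 0 in the planned fit, and Hoxd3 has the lowest value of all genes shown.

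The set of calls changed with the libraries and the correction used. Without low replicate 3, 11 Hox genes were called of 23 tested, 3 higher (Hoxb5, Hoxb7 and Hoxb8) and 8 lower (among them Hoxa2 to Hoxa4, Hoxb2, Hoxc5, Hoxd3 and Hoxd4), while over all genes 41.1% were called, 22.1% higher and 18.9% lower. With the GC and length offsets 8 were called, all lower (among them Hoxa2 to Hoxa4, Hoxb2, Hoxb3, Hoxc5 and Hoxd3), against the planned split of 1 higher and 5 lower, and of all genes 20.8% were called, 12.3% higher and 8.52% lower.

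Replicate 1 of the fresh lungs differed from replicates 2 and 3 in many Hox genes. Replicate 1 was compared with the mean of replicates 2 and 3 in log2(CPM + 0.5). It was higher at all 3 stages for Hoxa5, Hoxa6, Hoxa7, Hoxb5, Hoxb7 and Hoxb8. It was lower at all 3 for genes that include Hoxa3, Hoxa4, Hoxb3, Hoxb4, Hoxb6, Hoxc4 and Hoxc5. The difference was only 0.02 for Hoxb7 at E13.5, where replicate 3 was above replicate 1, and -0.01 for Hoxc5 at E14.5. Hoxa5 and Hoxb5 together took 51.9% to 52.5% of the Hox CPM in replicate 1 of the 3 stages. Over 19 Hox genes tested in both tables, 15 (78.9%) had the same sign in that difference and in high over low pressure, with Pearson's r of 0.54 and Spearman's rho of 0.58 across genes. Over all 14017 genes tested in both tables the same sign was found for 69.1%, with r of 0.44 and rho of 0.5, and genes are not independent replicates. Signs in replicate 1 minus the others were mixed for 5 genes, Hoxa2, Hoxb1, Hoxb2, Hoxd3 and Hoxd8. Of these, Hoxd3 and Hoxa2 had averages of 0.07 and 0.06 in log2(CPM + 0.5). From the earliest to the latest stage Hoxd3 had -0.23, 0.45 and -0.01, and Hoxa2 had -0.06, 0.06 and 0.17. The small average of Hoxd3 thus came from values of opposite sign. Both genes were among those called between pressures. So were Hoxa3, Hoxa4 and Hoxb8, whose averages of -0.54, -1.1 and 1.07 had the same sign as their pressure fold changes. The ribosomal protein share was also higher both in replicate 1 and at high pressure, and its part in the Hox values was not tested.

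**Figure D4:**
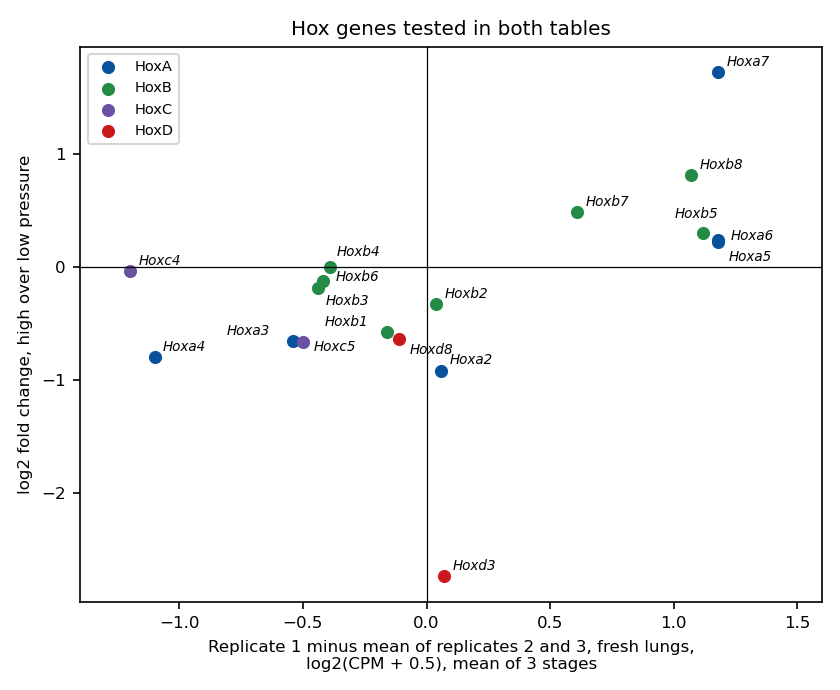
Each point is 1 Hox gene tested in both tables: the x axis gives replicate 1 minus the mean of replicates 2 and 3 in fresh lungs (log2(CPM + 0.5), mean of 3 stages) and the y axis the log2 fold change of high over low pressure. Points run from lower left to upper right, with Hoxa3 and Hoxa4 at the lower left and Hoxb8 at the upper right. Hoxd3 and Hoxa2 lie near 0 on the x axis and below 0 on the y axis.

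Some markers of lung cell types differed between the pressures as well. The counts below stand beside 14% of all genes called higher and 12.2% called lower at high pressure. 9 of 10 epithelial markers were higher at high pressure, and their summed level was 1760 to 1870 CPM at high and 836 to 963 CPM at low pressure. Of 10 mesenchymal markers 3 were higher and 5 lower: the collagen genes Col1a1 and Col1a2 rose with log2 fold changes of 1.20 and 0.96, and the transcription factor genes Twist1 and Foxf1 fell with -2.03 and -1.24. The list's median log2 fold change was 0.04. The summed mesenchymal level was 5930 to 7360 CPM at high and 3750 to 4680 CPM at low pressure, and most of it at high pressure came from these collagen genes. Col1a1 averaged 2520 ± 382 CPM at high and 1100 ± 230 CPM at low pressure, and Col1a2 averaged 3190 ± 376 CPM at high and 1640 ± 243 CPM at low pressure (SD, n = 3 each). Of 6 endothelial markers 2 were lower (sums 86.6 to 193 CPM at high and 197 to 304 CPM at low pressure), and of 4 cartilage markers tested 3 were lower (sums 234 to 343 CPM at high and 406 to 576 CPM at low pressure). Of 8 mesothelial markers 2 were higher, of 5 erythroid markers 1 was lower and of 6 leukocyte markers 1 was higher. None of 7 neuron and glia markers and none of 8 cardiac and skeletal muscle markers tested was called. No marker of the lung epithelium, mesenchyme or endothelium was at 0 in any group, while the erythroid marker Hba-a1 was listed at 0 in all 5. The part of cell composition in the Hox values was not tested.

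TALE proteins are partners of HOX proteins on DNA. Of 9 TALE genes tested, 2 were lower at high pressure, Meis2 among them, and Pknox2 was higher, beside 26.1% called over all genes, and the list's median log2 fold change was -0.26. Meis2 had 75.3 to 87.5 CPM at high and 175 to 216 CPM at low pressure (log2 fold change -1.19, SE 0.11, adjusted p = 0.0006, edgeR). Pknox2 had a lower level, with 7.93 to 10.3 CPM at high and 3.64 to 6.39 CPM at low pressure (log2 fold change 0.81, SE 0.25, adjusted p = 0.0429, edgeR). Meis1, Meis3, Pbx2, Pbx3, Pbx4 and Pknox1 did not pass, with log2 fold changes of -0.26 to 0.64.

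Retinoic acid, made from vitamin A, is a classical inducer of anterior Hox genes. Of 17 pathway genes tested, 3 rose and 4 fell at high pressure, beside 14% higher and 12.2% lower over all genes, and the other 10 did not pass (list median -0.31). Aldh1a1, an enzyme that makes retinoic acid, was higher (log2 fold change 2.08, SE 0.19, adjusted p = 0.0006, edgeR), as was the receptor gene Rxra (0.51). Cyp26b1, which breaks retinoic acid down, was lower, with 24.4 to 40.2 CPM at high and 73.0 to 106 CPM at low pressure (log2 fold change -1.56, SE 0.21, adjusted p = 0.0019, edgeR). Crabp1, a retinoic acid carrier (-1.35), Rdh10, which makes retinaldehyde (-0.71), and the receptor gene Rarb (-0.32) were lower too. Aldh1a2, the main such synthetic enzyme of the embryo, did not pass (log2 fold change -0.38, adjusted p = 0.0838, edgeR).

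Polycomb proteins hold Hox genes silent and trithorax proteins keep them active. Of 16 Polycomb genes, Jarid2, Bmi1 and Phc1 fell at high pressure (log2 fold changes -0.51, -0.67 and -0.31) and Ring1, Cbx7 and Phc2 rose (0.66, 1.18 and 0.37), while 10 did not pass. Over all genes 26.1% were called, which is the background share for this list and for those that follow. Of 7 trithorax group genes and partners tested, the histone demethylase gene Kdm6a fell (-0.57) and the other 6 did not pass. Of 10 tested genes that neighbour the clusters or are noncoding genes within them, Mtx2 beside HoxD (0.33) and Snx11 beside HoxB (0.56) rose and 8 did not pass. Of 12 genes linked to Hox5 function in mouse lung, Nkx2-1 (1.06), Foxa2 (0.79), Bmp4 (0.41), Eln (1.64) and Fgf10 (0.73) rose and Lef1 (-1.24) and Pdgfra (-0.35) fell. Wnt2 and Wnt2b, WNT ligand genes that depend on Hox5 in mouse lung mesenchyme, did not pass, with log2 fold changes of -0.31 and 0.04.

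Across the fresh stages the summed Hox level at E12.5 was 454 ± 16.2 CPM, that at E13.5 was 479 ± 58.2 CPM and that at E14.5 was 353 ± 65.4 CPM (SD, n = 3 each). In the planned fit no gene was called in any of the 3 stage comparisons, Hox or other (edgeR, 14242 genes and 20 Hox genes tested, 0% called). At an unadjusted p under 0.05 there were 123 genes for E13.5 against E12.5, 977 for E14.5 against E13.5 and 1328 for E14.5 against E12.5, among them 1, 3 and 7 Hox genes. DESeq2 called 0, 265 (1.63%) and 454 (2.85%) genes in the same comparisons, of which 0, 1 and 2 were Hox genes. Replicate 1 of each stage deviated from its group mean like replicate 1 of the other stages, while replicates 2 and 3 resembled each other across stages whatever their number. With the replicate number as a block the calls were different.

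With the block, a few Hox genes were lower at E14.5 and none was called higher. For E14.5 against E12.5, 5 of 20 Hox genes were called, all lower (Hoxb3, Hoxb4, Hoxc4, Hoxc5 and Hoxd13), beside 11% of all genes called, 7.33% higher and 3.63% lower. For E14.5 against E13.5, 4 were called, all lower (Hoxb3, Hoxb4, Hoxb6 and Hoxd13), beside 6.01% of all genes called, 4.15% higher and 1.86% lower. Without the first replicates and with the block, Hoxd13 alone stayed called against E13.5, and against E12.5 Hoxb4, Hoxc4, Hoxc5 and Hoxd13 did. For E13.5 against E12.5 no Hox gene was called, and 1 gene of the whole table (0.00702%) was called. An unadjusted p under 0.05 was found there for 3 of 20 Hox genes, beside 553 of all 14242 genes (edgeR with the block). The median log2 fold change of the Hox genes was -0.30 for E14.5 against E12.5, beside 0.00 over all genes. These comparisons share their E12.5 or E14.5 libraries and are not separate evidence.

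Hoxd13, a gene of the distal limb and the hind end of the body, had the largest fold change of the called Hox genes. It had 0.711, 1.14 and 2.19 CPM at E12.5, 0.654, 1.28 and 1.74 CPM at E13.5 and 0.197, 0.052 and 0.271 CPM at E14.5. Its level was similar on the first 2 days and every E14.5 library lay below all earlier ones, with 10 counts over the group against 83 at E12.5. With the block the log2 fold change was -2.85 for E14.5 against E12.5 (SE 0.50, adjusted p = 0.0059, edgeR) and -2.74 for E14.5 against E13.5 (SE 0.51, adjusted p = 0.0119, edgeR).

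Hoxc4 and Hoxc5 made up nearly all HoxC counts, and the HoxC sum in the E12.5 lungs was 13.9 ± 8.26 CPM, in the E13.5 lungs 6.65 ± 2.06 CPM and in the E14.5 lungs 4.38 ± 1.02 CPM (SD, n = 3 each). Hoxc4 had 3.03, 9.94 and 14.7 CPM at E12.5, 2.72, 6.22 and 5.57 CPM at E13.5 and 1.82, 3.22 and 3.80 CPM at E14.5. Replicate 1 was the lowest at each stage and each replicate number had its lowest value at E14.5 (log2 fold change -1.50 for E14.5 against E12.5, SE 0.24, adjusted p = 0.0043, edgeR with the block). The numbers did not separate replicates 2 from 3 across stages, so falls within a number, here and below, are not matched pairs. Hoxc5 had 2.09, 4.29 and 7.22 CPM at E12.5, 1.46, 1.65 and 2.04 CPM at E13.5 and 1.13, 1.14 and 1.14 CPM at E14.5. Its E14.5 libraries were nearly alike, at 1.14 ± 0.00514 CPM (SD, n = 3), and below all earlier ones (log2 fold change -1.85, SE 0.33, adjusted p = 0.0063, edgeR with the block). They held only 23, 22 and 21 counts, so counting error is larger than this SD.

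The HoxB genes changed less in fold and more in level. Hoxb3 had 55.5, 77.2 and 86.3 CPM at E12.5, 62.3, 83.2 and 83.7 CPM at E13.5 and 49.2, 57.4 and 69.7 CPM at E14.5. Each replicate number was lowest at E14.5, although the stages overlap, and the log2 fold change was -0.29 against E12.5 (SE 0.08, adjusted p = 0.0393, edgeR with the block). That call was lost with a term for the first replicates alone in place of the block (adjusted p = 0.0512, edgeR) and with the block without the first replicates (adjusted p = 0.0717, edgeR). Antisense Hoxb3os overlaps 52.9% of the exon length of Hoxb3. Hoxb4 had 36.7, 51.8 and 62.9 CPM at E12.5, 44.5, 51.8 and 54.2 CPM at E13.5 and 31.3, 37.1 and 39.4 CPM at E14.5, again lowest at E14.5 in each replicate number (log2 fold change -0.45 against E12.5, SE 0.10, adjusted p = 0.0166, edgeR with the block). Hoxb6 had 23.0, 31.7 and 30.6 CPM at E12.5, 29.2, 37.7 and 40.1 CPM at E13.5 and 18.4, 19.8 and 31.1 CPM at E14.5. Its highest stage was E13.5, and it was called against E13.5 (log2 fold change -0.62, SE 0.12, adjusted p = 0.0154, edgeR with the block) but not against E12.5 (-0.31, adjusted p = 0.128).

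**Figure D5:**
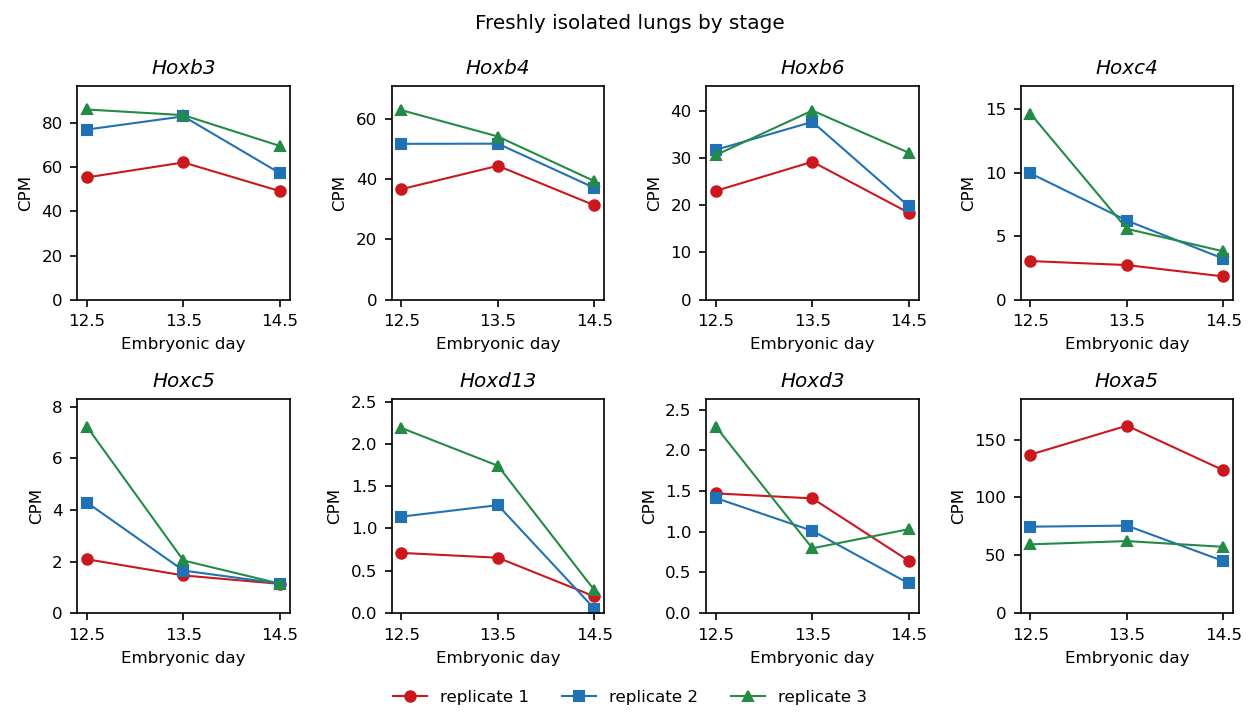
CPM of 8 Hox genes in freshly isolated lungs by stage, with lines joining libraries of the same replicate number. The labels do not pair these libraries across stages. For Hoxb3, Hoxb4, Hoxc4, Hoxc5 and Hoxd13 each line is lowest at E14.5, and for Hoxa5 replicate 1 lies above the others at every stage.

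Hoxd3, which fell at high pressure, came close to the threshold between E14.5 and E12.5 without passing it (log2 fold change -1.35, SE 0.40, adjusted p = 0.0518, edgeR with the block). Hoxa5 and Hoxb5 did not pass, at -0.29 and -0.16 (adjusted p = 0.145 and 0.608, edgeR with the block). Within replicate 1 of the 3 stages Hoxa5 had 137, 162 and 124 CPM, and in the other 6 fresh libraries it had 44.97 to 75.6 CPM, so replicate 1 lay above every other fresh library whatever the stage. Of the 19 Hox genes tested in both tables, 11 had a negative fold change both at high pressure and at E14.5 with the block, and 3 had a positive one in both. The matching shares over all genes were not computed, so these counts have no background and no shared change is read from them.

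In the planned fit no gene of the companion lists was called between stages. With the block, 5 of 8 TALE genes tested were lower at E14.5 than at E12.5 and none was higher, beside 3.63% lower and 7.33% higher over all genes, among them Meis1 (log2 fold change -0.29), Meis3 (-0.73), Pbx2 (-0.60) and Pbx3 (-0.71). Of 16 Polycomb genes Cbx2 (-0.79), Jarid2 (-0.31) and Phc1 (-0.33) fell, 1 rose and 12 did not pass. Of 7 trithorax group genes Kdm6b (-0.35) fell and 6 did not pass. Of 16 retinoic acid genes Crabp2 (-1.55) and Rarb (-0.51) fell and 14 did not pass. Of 11 neighbours tested, Cbx1 (-0.30) and Evx1 (-3.67, SE 0.80, adjusted p = 0.0156, edgeR with the block) fell. Evx1, a homeobox gene at the Hoxa13 end of HoxA, had 48 counts over the E12.5, 20 over the E13.5 and 3 over the E14.5 libraries, 9 at high and 42 at low pressure. Of the 12 genes linked to Hox5, Tnc rose (0.71) and Lef1 fell (-0.53).

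Cell type markers moved with stage beside these values. For E14.5 against E12.5 with the block, 5 of 6 endothelial markers and 4 of 7 cardiac and skeletal muscle markers tested rose. Over all genes that fit called 7.33% higher and 3.63% lower. The muscle sum was 6.41 to 34.4 CPM at E12.5, 10.4 to 103 CPM at E13.5 and 294 to 1300 CPM at E14.5. Of 10 mesenchymal markers 3 rose and 1 fell, of 7 mesothelial markers 2 rose, of 5 leukocyte markers 1 rose, and of 5 cartilage and 5 erythroid markers 2 each fell. None of 10 epithelial and none of 7 neuron and glia markers was called. Their part in the Hox values was not tested.

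Some genes stood at other levels in cultured than in fresh lungs. Culture, table and depth cannot be told apart here, and the levels are set side by side with no test. Hoxb6 had 9.96 to 13.9 CPM at high and 11.9 to 13.7 CPM at low pressure, below all 9 fresh libraries at 18.4 to 40.1 CPM. Hoxa4 had 10.9 to 13.8 CPM at high and 16.5 to 24.4 CPM at low pressure, against 12.7 to 59.5 CPM in the fresh lungs, so the high pressure libraries lay at the low end of the fresh range. Hoxa2 at high pressure, with 6.02 to 7.996 CPM, was below all 9 fresh libraries at 8.11 to 13.8 CPM, while at low pressure it had 11.2 to 14.8 CPM. Hoxa3 had 21.3 to 25.9 CPM at high pressure, inside the fresh range of 16.7 to 33.6 CPM, and 33.6 to 39.3 CPM at low pressure, at its upper end and above.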

How the data were processed

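RNA of pooled whole lungs was sequenced. Per the submitters' processing notes, cutadapt 1.6, Bowtie 1.1.1, TopHat, HTSeq and DESeq2 were used on mm10. The sources used here do not give the gene annotation, filters or strand setting. The authors deposited raw read counts for the cultured and the fresh lungs in separate tables, and these were the input of every test. The authors' normalized tables hold a signal, the count divided by 1 factor per library, and their deposited log2 tables hold log2 of that value plus 1. Both were checked against the counts and not tested.

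The tables were fitted separately in edgeR 4.0.16, run under R 4.3.3 (TMM, filterByExpr by group, robust quasi-likelihood F-test, Benjamini-Hochberg over all genes tested, threshold 0.05). The comparisons were high with low pressure and each later stage with each earlier one, the stages in one fit. SE is the size of the log2 fold change divided by the square root of F. CPM uses TMM factors over all 15 libraries. CPM per kilobase uses exon lengths from GENCODE M21 (GRCm38), to which 21777 symbols matched directly and 1278 through synonyms out of 23420, the 39 Hox genes among them. Promoters come from RefSeq on GRCm38.p6.

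In the fresh libraries, deviations from group means correlated at 0.397 to 0.838 in all 9 same-numbered pairs, against -0.736 to 0.625 in the 18 others, and the number was used as a block. Among replicates 2 and 3 the correlation was 0.397 to 0.606 with the same and 0.454 to 0.625 with a different number, so the numbers set replicate 1 apart and did not separate 2 from 3. Cultured libraries showed no pairing (-0.012 to 0.046 in same-numbered pairs). Blocked values are given where they change a call.

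The Hox genes and the 15 companion lists were chosen with earlier results of these data known. Values in every library are given for Hox genes called in the planned or blocked fit and for the highest ones, with others named as neighbours or paralogs of these after their values were seen. From each companion list up to 4 genes with the smallest p were taken, with TALE genes and Evx1, and further members where few were called. Some genes counted in the totals are not reported here by name.

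Alternatives were median-of-ratios factors, no low-count filter, DESeq2 1.42.0, each library left out, the replicate block, all 15 libraries in one fit, spline offsets for GC and length (5 degrees of freedom), a batch term for the first replicates and their removal. Blocking together with that removal was added after seeing the data. On simulated data with 200 changed genes, the test of high against low pressure recovered 66% of changes of 1 on the log2 scale and 88.8% of changes of 2 over 14708 genes. The test of E14.5 against E12.5 without the block recovered 6% and 58.2% over 14111 genes.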

Additional observations from a re-analysis of the deposited data

How the results depend on the processing

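No Hox gene called in the planned or the blocked fit reversed its direction under any setting of the comparison that called it. Hox genes called only under other settings were not checked in this way. For high against low pressure the 6 Hox calls and 3905 genes stood beside 6 Hox genes with other scaling factors, without the low-count filter and with the replicate block, and 7 with DESeq2. Over all genes these settings called 3922 of 14937 tested, 3807 of 18160, 3137 of 14937 and 4731 of 16078, in that order. With all 15 libraries in one fit there were 2 Hox calls and 1121 genes. Leaving out single libraries gave 3 (without high replicate 2) to 11 Hox calls (without low replicate 3) and 1894 to 6257 genes, the lowest and highest again without these 2 libraries. Hoxd3 kept its call under all 12 alternatives, Hoxa2 and Hoxa3 under 11, Hoxa4 under 8 and Hoxb8 under 6.

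For the stages, the fit without the block called 0 genes. Leaving out single libraries gave 0 genes, except 3 genes for E14.5 against E12.5 without E14.5 replicate 2, and 0 Hox genes throughout. For E13.5 against E12.5 the genes called were 1 with the replicate block, 1 with the block and GC and length offsets, 1 with the batch term, 16 with DESeq2 and the block, and 2 with the block without the first replicates. For E14.5 against E13.5 they were 856 with the block (4 Hox), 265 with DESeq2 (1 Hox), 29 with all 15 libraries, 62 without the first replicates, 1046 with the block and offsets (5 Hox), 808 with the batch term (4 Hox), 1159 with DESeq2 and the block (6 Hox), and 176 with the block without the first replicates (1 Hox). For E14.5 against E12.5 they were 1561 with the block (5 Hox), 9 without the filter, 454 with DESeq2 (2 Hox), 161 with all 15 libraries (1 Hox), 9 with the offsets, 1119 without the first replicates (4 Hox), 1880 with the block and offsets (6 Hox), 1592 with the batch term (4 Hox), 1823 with DESeq2 and the block (6 Hox), and 1187 with the block without the first replicates (4 Hox). The cause of these shifts was not tested. All Hox genes called between stages were lower at the later stage.

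Genes under 1 CPM rest on few counts, and their fold changes are uncertain at this depth. Pool size, ribosomal protein share and cell type markers moved with pressure or stage, and the labels name no litter or culture.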

Other observations

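The noncoding genes of the clusters that were analysed had few or no counts, and other noncoding genes there, such as Hoxb3os, were not analysed here. Hotair, Hoxa11as and Mir196b had no count in any library. Mir10a, the microRNA gene beside Hoxb4, had 7 counts over the high and 4 over the low pressure libraries and 12, 16 and 16 counts over the E12.5, the E13.5 and the E14.5 libraries. Mir10b, beside Hoxd4, had 0 counts at high and at low pressure and 1, 5 and 1 counts over the 3 stages in order. Evx2, the homeobox gene next to Hoxd13, had 6 counts at high and 0 at low pressure, and 14, 7 and 2 counts over the stages. Hoxd13 itself had 16 counts over the high and 29 over the low pressure libraries. Counts of mature microRNAs are not measured by such libraries.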
